A study of Mus musculus with 26 samples.

Results

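Bivalent chromatin carries H3K4me3, a mark of active promoters, and H3K27me3, the mark that Polycomb repressive complex PRC2 lays down, on the same nucleosome or on neighbouring ones. In embryonic stem cells (ESCs) it lies mostly at CpG-rich promoters of developmental genes, which are held silent but inducible. Sequential ChIP (reChIP) tests for both marks on one fragment by precipitating chromatin with a first antibody, eluting it, and precipitating the eluate with the second, so a fragment carrying both should be recovered whichever antibody comes first. DPPA2 and DPPA4 are a pair of DNA-binding proteins that maintain bivalency at a subset of promoters.

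The regions described here are those of the K4-K27 table (H3K4me3 first, then H3K27me3) of DPPA2/4 double knockout (DKO) clones that overlapped a region of the K27-K4 table (H3K27me3 first) of the same clones by at least 1 bp. They numbered 11308 of 28227 K4-K27 regions, which is 40.1%, and they met 10205 of 28540 K27-K4 regions, which is 35.8%. The question was whether both orders recovered the same enrichment at these regions, and which genes each order favoured. DKO clones 43 and 53 of the E14 mouse ESC line each gave 1 K4-K27 and 1 K27-K4 library, made from MNase-digested chromatin of cells grown in serum and LIF without feeders. In-line totals of H3K4me3 and H3K27me3 came from a portion of the first eluate of each clone, so that total H3K4me3 shared its first precipitation with K4-K27, and total H3K27me3 with K27-K4. WT clones 57 and 58 of the same line, treated in the same way, were read at the same regions. A single IgG–IgG reChIP, from WT clone 57, served both genotypes. Each clone is 1 culture derived from 1 cell, the libraries of a group are 2 clones, and all these libraries carry the same sequencing batch label. The promoters of Dppa2 and Dppa4 lay in no shared region, so the knockout itself could not be checked there. Of 10 ESC markers only Klf4 and Esrrb had a shared region at the promoter, as against 9 of 10 markers of primitive endoderm and 8 of 10 of trophectoderm.

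Behind the values stood 10542763 and 12987112 reads for K4-K27 in clones 43 and 53, and 23330120 and 17118900 reads for K27-K4. The median shared region held 148 and 117 reads in the K4-K27 libraries and 159.5 and 105 reads in the K27-K4 libraries, against 22 reads in the IgG–IgG library. Values were log2 RPM per kb (reads mapped to the region, relative to library size and region length), and each library was then centred on its own median over the shared regions. Pearson's r across the 11308 regions was 0.90 between the clones for K27-K4, 0.72 for K4-K27 and 0.50 to 0.59 between libraries of different order. The regions had a median width of 1950 bp, and 7021 of them (62.1%) reached within 1.5 kb of a RefSeq start site.

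Promoter sequences at both extremes of the order difference are shown first. The 300-base promoter windows of 3 genes among the most K4-K27-favoured and 3 among the most K27-K4-favoured regions, and of Hoxb1, the Hox gene with the largest difference, are given here so that the CpG content of single promoters can be read beside the medians given further on. Sequences are from RefSeq on GRCm38.p6, 250 bases before to 50 after the start, on the gene's strand, with CG dinucleotides in capitals. Of 25 genes at the 24 leading promoter regions, 19 had an entry. The K4-K27-favoured genes shown are Ngdn (chr14:55015204-55015503, plus strand), Rabgap1 (chr2:37443035-37443334, plus strand) and Spr (chr6:85137715-85138014, minus strand).
Ngdn: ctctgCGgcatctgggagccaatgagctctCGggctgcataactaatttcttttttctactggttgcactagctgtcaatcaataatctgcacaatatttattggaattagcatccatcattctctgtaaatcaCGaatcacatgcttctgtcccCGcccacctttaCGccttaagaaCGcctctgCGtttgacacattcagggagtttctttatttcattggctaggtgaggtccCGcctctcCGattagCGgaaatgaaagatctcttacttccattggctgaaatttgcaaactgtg
Rabgap1: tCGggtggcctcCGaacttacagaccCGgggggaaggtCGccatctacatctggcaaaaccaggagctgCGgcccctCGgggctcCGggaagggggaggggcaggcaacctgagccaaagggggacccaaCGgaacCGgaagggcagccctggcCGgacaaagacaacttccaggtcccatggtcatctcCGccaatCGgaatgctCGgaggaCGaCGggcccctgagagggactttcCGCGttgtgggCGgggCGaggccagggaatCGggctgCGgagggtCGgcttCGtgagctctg
Spr: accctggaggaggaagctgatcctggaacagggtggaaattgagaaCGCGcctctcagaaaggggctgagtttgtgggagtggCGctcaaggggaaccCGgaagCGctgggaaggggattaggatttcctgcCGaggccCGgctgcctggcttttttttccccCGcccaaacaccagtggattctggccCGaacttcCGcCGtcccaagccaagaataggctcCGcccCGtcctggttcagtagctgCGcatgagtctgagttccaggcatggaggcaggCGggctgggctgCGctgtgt
The K27-K4-favoured genes shown are Caly (chr7:140082252-140082551, minus strand), Tekt5 (chr16:10395406-10395705, minus strand), Gabrq (chrX:72824928-72825227, plus strand) and Hoxb1 (chr11:96365508-96365807, plus strand).
Caly: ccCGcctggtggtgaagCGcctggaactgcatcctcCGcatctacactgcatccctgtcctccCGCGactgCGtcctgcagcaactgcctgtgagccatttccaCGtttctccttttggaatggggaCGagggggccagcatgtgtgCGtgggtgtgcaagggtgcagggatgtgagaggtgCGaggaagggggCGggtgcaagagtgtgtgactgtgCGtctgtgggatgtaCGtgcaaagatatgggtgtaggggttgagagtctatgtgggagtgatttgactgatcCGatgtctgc
Tekt5: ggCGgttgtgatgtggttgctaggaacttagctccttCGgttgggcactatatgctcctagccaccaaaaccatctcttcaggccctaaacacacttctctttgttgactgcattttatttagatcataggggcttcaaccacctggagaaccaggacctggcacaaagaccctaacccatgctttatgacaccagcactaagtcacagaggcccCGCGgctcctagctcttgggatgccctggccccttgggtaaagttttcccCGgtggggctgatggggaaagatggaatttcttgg
Gabrq: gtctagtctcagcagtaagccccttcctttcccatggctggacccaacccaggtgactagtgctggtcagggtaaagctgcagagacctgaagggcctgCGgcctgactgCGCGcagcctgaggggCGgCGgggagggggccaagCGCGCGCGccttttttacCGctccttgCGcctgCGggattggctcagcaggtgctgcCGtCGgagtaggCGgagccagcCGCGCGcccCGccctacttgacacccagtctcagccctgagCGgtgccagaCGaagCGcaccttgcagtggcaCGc
Hoxb1: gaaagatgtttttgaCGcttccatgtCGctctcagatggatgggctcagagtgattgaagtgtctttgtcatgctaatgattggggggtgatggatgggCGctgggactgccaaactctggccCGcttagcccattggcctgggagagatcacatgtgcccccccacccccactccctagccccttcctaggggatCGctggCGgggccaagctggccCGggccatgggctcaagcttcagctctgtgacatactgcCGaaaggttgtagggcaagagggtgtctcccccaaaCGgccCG
These windows hold 10, 23 and 16 CG dinucleotides for Ngdn, Rabgap1 and Spr, and 14, 5, 23 and 10 for Caly, Tekt5, Gabrq and Hoxb1, so single promoters of the groups overlapped in CpG content.

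After centring, 1187 shared regions were higher in K4-K27 and 811 were higher in K27-K4 by limma, at a log2 difference above 1 and a Benjamini-Hochberg adjusted p under 0.05. These were 10.5% and 7.17% of the regions tested, and 9310 were called in neither direction. The median difference, K27-K4 minus K4-K27, was -1.60 over the K4-K27-favoured regions, 1.16 over the K27-K4-favoured ones and 0.34 over all shared regions. The distribution was lopsided, from -1.64 at the 5th percentile to 1.16 at the 95th, with extremes of -3.22 and 2.55. The rule for a call all but fixes the direction in each clone, and clone medians were -1.77 and -1.42 for the K4-K27-favoured regions and 1.23 and 1.11 for the K27-K4-favoured ones.

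**Figure D1:**
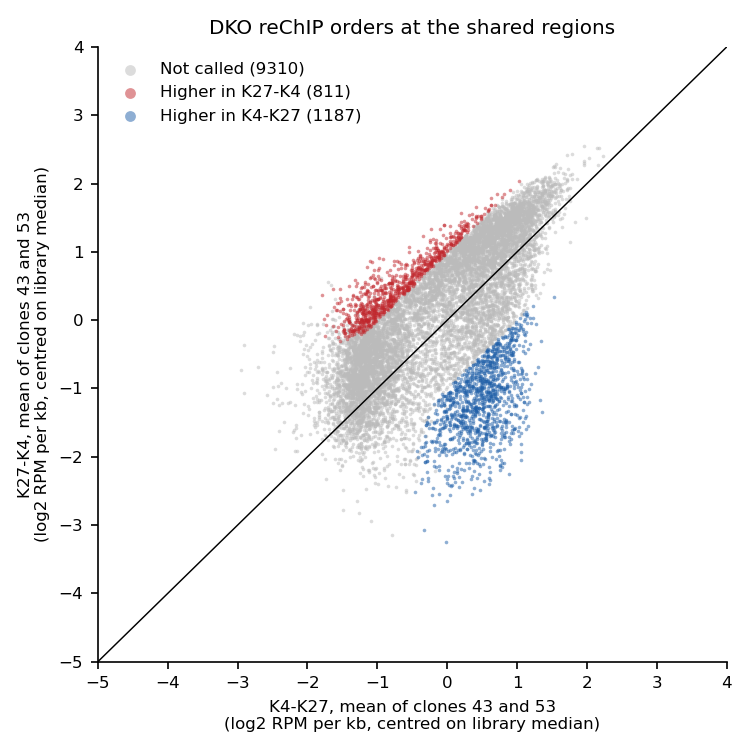
Mean centred value of each shared region in K27-K4 (y axis) against K4-K27 (x axis), both in log2 RPM per kb, over DKO clones 43 and 53. Each point is a region, the line marks equal values, and the 1187 K4-K27-favoured regions (blue) form a cloud below the line while the 811 K27-K4-favoured ones (red) lie along the upper edge.

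The direction of these calls is relative to the typical shared region, since the balance of directions moved with the scaling. Without centring, 22 regions were higher in K27-K4 and 1633 in K4-K27 (median difference -0.20). Quantile normalisation gave 507 and 1288 (median 0.15), correction for GC content 354 and 1126, and for width 236 and 826. When libraries were centred on the 13 shared regions at promoters of ribosomal, proteasome, chaperonin, splicing and respiratory chain genes, 9712 regions were higher in K27-K4 and 0 in K4-K27 (median 2.52). A change of centring shifts all regions by the same amount, so it moves the calls and not the order of the regions. Housekeeping centring added 2.19 to every difference. That all 811 K27-K4 calls and 0 of the 1187 K4-K27 calls remained under it was therefore all but fixed. When libraries were left out, the K4-K27-favoured calls were the steadier. Of the 1187, 854 (71.9%) were called with each of the 4 libraries left out in turn, as against 163 of 811 (20.1%) of the K27-K4-favoured ones, whose number was 322 without K27-K4 of clone 43 and 1443 without K4-K27 of clone 53.

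The 12 K4-K27-favoured promoter regions with the largest differences lay between -3.22 and -2.90, and, by the rule that chose them, both K4-K27 libraries lay above both K27-K4 libraries. Such separation was seen at 22.9% of all shared regions, and the opposite separation at 46.6%. At Ngdn, which encodes neuroguidin (chr14:55014301-55016400), centred values were -0.07 and 0.02 in K4-K27 of clones 43 and 53, against -4.19 and -2.30 in K27-K4, from 131, 115, 10 and 24 reads. This is the largest of the differences and also the least certain of the 12 (-3.22 ± 0.93 SE, n = 2 clones, limma adjusted p = 0.0203). The region shared by Rabgap1, a GTPase-activating protein for Rab proteins, and Zbtb26 (chr2:37441651-37444500) gave 0.69 and 1.07 in K4-K27, against -2.78 and -1.74 in K27-K4. At Spr, encoding sepiapterin reductase of tetrahydrobiopterin synthesis (chr6:85136851-85138500), the values were 1.15 and 0.94 against -2.52 and -1.58. In all 3 the K4-K27 libraries of the clones agree closely, and the wider spread is between the K27-K4 libraries, which held few reads.

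Ckap5, a microtubule polymerase of the spindle (chr2:91526401-91528800), had 0.71 and 0.48 in K4-K27, against -2.49 and -2.32 in K27-K4 (difference -3.001 ± 0.43 SE, adjusted p = 0.002). Dars, the cytosolic aspartyl-tRNA synthetase (chr1:128416201-128418150), had 0.52 and 0.42 against -2.59 and -2.38. Chmp3, a subunit of the ESCRT-III membrane scission machinery (chr6:71543101-71545350), had 0.75 and 0.48 against -2.65 and -2.03. For these promoters the gap between the orders was many times the gap between the clones. The other members of the set were Cenpo, a centromere protein, in a region shared with Ptrhd1 (-2.95), Pkn2, a protein kinase (-2.93), Sgf29, an H3K4me3 reader of the SAGA complex (-2.90), Dhx30, an RNA helicase (-2.90), Klhdc10 (-2.90) and Ammecr1l (-2.99). All 12 were called with each library left out.

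The 12 leading promoter regions favoured by K27-K4 lay between 1.66 and 2.09, with 6 to 34 reads in the lowest library of each, against 10 to 44 at the K4-K27-favoured ones. The largest difference was at Tmem35a, a chaperone of nicotinic acetylcholine receptors (chrX:134295301-134295900), with -0.83 and -2.43 in K4-K27, against 0.23 and 0.68 in K27-K4, from 22, 6, 61 and 54 reads (2.09 ± 0.50 SE, adjusted p = 0.0094). Its clones differ widely in K4-K27, and the call was lost without either K27-K4 library. Caly, encoding the neuronal vesicular protein calcyon, had adjoining regions that behaved alike. The first (chr7:140080351-140081700) gave -1.38 and -0.83 in K4-K27, against 0.84 and 0.90 in K27-K4 (1.97 ± 0.26 SE, adjusted p = 0.00191). The second, over the start site (chr7:140081851-140082600), gave -0.86 and -1.09 against 0.80 and 1.01 (1.88 ± 0.23 SE, adjusted p = 0.00167). Both were called with every library left out.

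Tmem45b (chr9:31463401-31464600) had -0.68 and -1.16 in K4-K27, against 1.07 and 0.73 in K27-K4. Gabrq, the theta subunit of GABA-A receptors (chrX:72825001-72825750), had -1.03 and -1.34 against 0.62 and 0.49. Mesp2, a bHLH factor of somite segmentation (chr7:79810201-79811700), had -0.42 and -1.53 against 0.66 and 0.86. Wnt2, a secreted Wnt ligand (chr6:18030001-18030900), had -1.49 and -0.60 against 0.47 and 0.77. With the regions of Caly, these were the 6 of the 12 that stayed called with every library left out. Others of the 12 were Tekt5, a tektin of the sperm flagellum (1.81), Tmem52 (1.81), 1700024J04Rik (1.67) and Sybu, encoding the axonal transport adaptor syntabulin (1.66), together with Tmem35a. Each of them lost the call without K27-K4 of clone 43 or of clone 53, and Tekt5 also lost it without K4-K27 of clone 43, when its difference was 0.95.

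**Figure D2:**
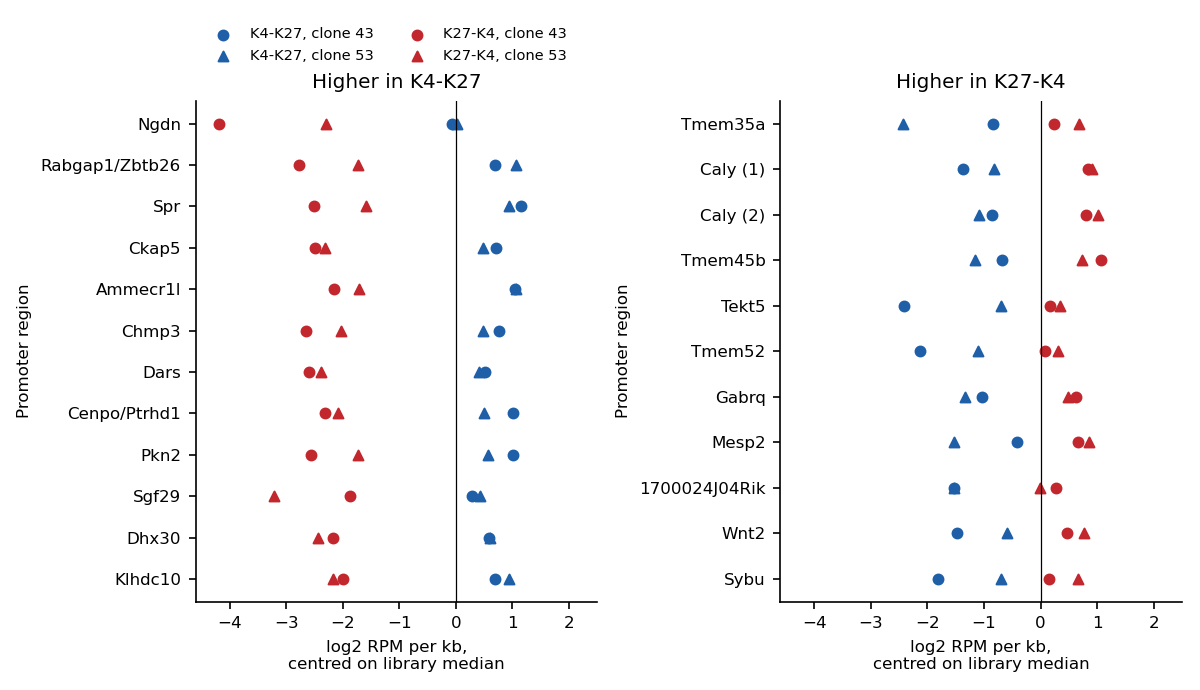
Centred value in every DKO reChIP library (x axis, log2 RPM per kb) at leading promoter regions favoured by each order (y axis, 12 on the left and 11 of 12 on the right), with circles for clone 43 and triangles for clone 53. K27-K4 libraries (red) fall to between -4.19 and -1.58 in the left panel, while in the right panel it is the K4-K27 libraries (blue) that lie below the median, at -2.43 to -0.42.

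The 2 regions of each order with the largest differences away from promoters were read in the same way. On the K27-K4 side, a region 3646 bp from the nearest start site, that of Hoxc10 (chr15:102962401-102963150), had -0.57 and -3.01 in K4-K27, against 0.62 and 0.13 in K27-K4 (2.17 ± 0.71 SE, adjusted p = 0.0407). It was called in 1 of the 4 leave-one-out fits and its difference was 0.94 without K4-K27 of clone 53. A region 10011 bp from the start of Foxa1, a pioneer factor of endoderm (chr12:57534751-57536100), had -2.003 and -1.05 against 0.47 and 0.44 (1.98 ± 0.38 SE), and was called in 3 of the 4 fits. The K4-K27-favoured ones were a region nearest Gm4419 but 124969 bp from it (chr12:21542851-21544050, -2.53 ± 0.25 SE) and a region 15948 bp from 9330102E08Rik (chr6:128199751-128201700, -2.46 ± 0.26 SE).

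Promoters made up 95.8% of the K4-K27-favoured regions (exact binomial 95% interval 94.5 to 96.9%), 44.9% of the K27-K4-favoured ones (41.4 to 48.4%) and 59.3% of the regions called in neither direction. The 447 K27-K4-favoured regions away from promoters lay a median of 10063 bp from a start site, and 220 of them (49.2%) were within 10 kb, as against 41.1% of all shared regions away from promoters. K4-K27-favoured regions were wide in the K4-K27 table, with a median of 2250 bp, and narrow in the K27-K4 table, where the region that they met had a median of 1500 bp. K27-K4-favoured regions had the reverse form, with medians of 1650 bp and, for the K27-K4 regions that they met, 5400 bp. Over all shared regions these medians were 1950 bp and 3150 bp. Each table lists regions of the same reChIPs that the calls compare, so the widths are not independent of the calls. Of the 1187 K4-K27-favoured regions 27 lay on the X chromosome, and of the 811 K27-K4-favoured ones 16, beside 317 of all 11308 shared regions.

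The in-line totals separated the regions favoured by each order, and they are readouts that the calls did not use, although each shared its first precipitation with a reChIP. At K4-K27-favoured regions total H3K4me3 exceeded IgG–IgG by a median of 3.56 and 3.12 log2 units in clones 43 and 53, but total H3K27me3 lay below IgG–IgG, at -1.30 and -0.79. It was below at 84.0% and 78.0% of these regions. At K27-K4-favoured regions the medians over IgG–IgG reached 1.22 and 1.22 for H3K4me3, and 2.12 and 2.02 for H3K27me3, so both totals stood above IgG–IgG there. Regions called in neither direction had medians of 2.20 and 2.01 (H3K4me3), and of 1.47 and 1.38 (H3K27me3). When the totals were compared with each other by limma after centring, 30.5% of all shared regions had more H3K4me3 and 32.1% more H3K27me3. Among the K4-K27-favoured regions 1186 of 1187 had more H3K4me3, and among the K27-K4-favoured ones 632 of 811 (77.9%) had more H3K27me3 and 1 had more H3K4me3. These counts depend on the centring. Without it, the shared regions with more H3K27me3 fell from 3634 to 1947, and those with more H3K4me3 rose from 3449 to 4867.

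**Figure D3:**
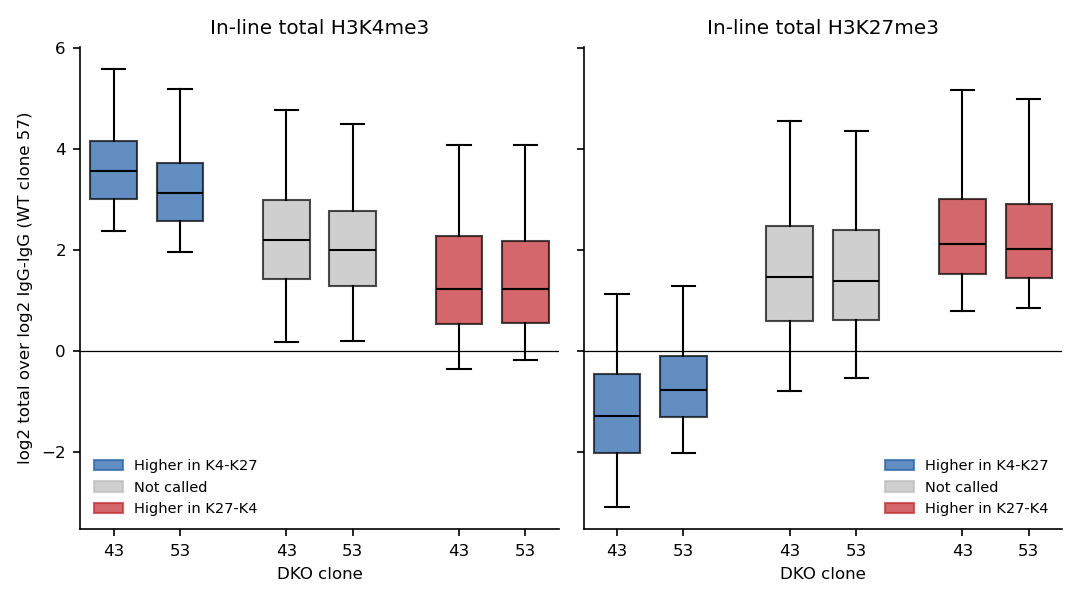
In-line total H3K4me3 (left) and total H3K27me3 (right) minus IgG–IgG (y axis, log2) in DKO clones 43 and 53 (x axis), by the order that favoured the region, with boxes from the 25th to the 75th percentile, the median as a line and whiskers at the 5th and 95th percentiles. Median H3K27me3 is at -1.30 and -0.79 in K4-K27-favoured regions and at 2.12 and 2.02 in K27-K4-favoured ones.

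At the K4-K27-favoured regions, where the H3K27me3 total was low, the K4-K27 libraries still exceeded IgG–IgG, by medians of 3.70 and 3.03 log2 units, and the K27-K4 libraries did so by 1.08 and 1.24. What brought these fragments through the second precipitation was not tested. At K27-K4-favoured regions the medians were 2.48 and 1.95 in K4-K27, against 2.99 and 2.72 in K27-K4, so that both orders stood well above IgG–IgG. In the tables of regions listed for the totals, 99.9% of K4-K27-favoured regions overlapped a DKO H3K4me3 region and 3.29% a DKO H3K27me3 region. For K27-K4-favoured regions these shares were 52.5% and 84.7%, and for all shared regions 74.3% and 53.8%.

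The shared regions were split by these listed totals into 4 groups, of which those listed for both marks and for neither had much the same values. Of 4463 regions listed for H3K4me3 alone, 1148 (25.7%) were K4-K27-favoured and 62 (1.39%) K27-K4-favoured, with a median difference of -0.33. Of 3935 regions listed for both marks, 38 (0.97%) were K4-K27-favoured and 364 (9.25%) K27-K4-favoured, with a median of 0.54. The 2150 regions listed for H3K27me3 alone had 1 K4-K27-favoured and 323 (15.0%) K27-K4-favoured members, with a median of 0.68. The 760 regions listed for neither had 0 and 62 (8.16%), with a median of 0.54. Regions listed for H3K4me3 alone thus held 96.7% of the K4-K27-favoured regions and 39.5% of all shared ones.

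Comparing across clones avoids a shared first precipitation. Regions in the lowest decile by total H3K27me3 of clone 53 had a median order difference of -1.76 in clone 43, and those in the highest 0.83. With the clones exchanged, the medians were -1.39 and 0.81. Total H3K4me3 gave a bent relation. From the lowest to the highest decile of total H3K4me3 of clone 53 the median in clone 43 went from 0.68 through 0.82 to -1.20, and with the clones exchanged it went from 0.30 through 0.70 to -1.01. Pearson's r across the 11308 regions was 0.74 in both exchanges for H3K27me3, and -0.53 and -0.39 for H3K4me3. These points share their sequence and mappability, and regions are not replicates.

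Sequence composition differed modestly. The median GC fraction was 0.528 in K4-K27-favoured regions, 0.553 in K27-K4-favoured ones and 0.538 over all shared regions, whereas CpG dinucleotides were more frequent in the former, at 4.24, 3.24 and 3.47 per 100 bp. In 300-base RefSeq promoter windows lying wholly within a shared region, the median number of CG dinucleotides was 23 over 1344 windows of K4-K27-favoured regions, 16 over 292 of K27-K4-favoured regions, 22 over the 6808 of all shared regions and 7 over all 32817 windows of the table. The Spr and Rabgap1 windows shown above hold CCGGAAG, the core of ETS family sites. Searched on both strands, this motif was in 22.9% of K4-K27-favoured windows, 7.19% of K27-K4-favoured ones, 9.93% of those in all shared regions and 8.86% of the table. GCGCATG, part of the palindromic NRF1 motif, was in 9.003%, 1.71%, 5.10% and 3.90% in the same order. ATGGCGG, part of the YY1 motif, was in 8.56%, 2.05%, 4.83% and 4.05%. CCAAT was in 39.1%, 28.1%, 33.5% and 37.4%, and TATAAA in 3.94%, 10.3%, 5.71% and 13.6%. A match of letters is a description of these windows and not of a bound factor.

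Gene lists were read at the promoter region of each gene, beside the background of promoter regions, of which 5.18% were K27-K4-favoured and 16.2% K4-K27-favoured, with a median difference of 0.23. Of 39 Hox genes, which set position along the body axis, 37 had a shared region at the promoter, in 33 regions. By gene 13 were higher in K27-K4, 0 were higher in K4-K27 and 24 were not called, with a median difference of 0.88. Hoxb1 (chr11:96365101-96367650) had -0.03 and -0.18 in K4-K27, against 1.45 and 1.23 in K27-K4 (1.45 ± 0.18 SE, adjusted p = 0.00167), from 163, 121, 602 and 337 reads. Hoxa2 had -0.24 and -0.54 against 1.04 and 0.87 (1.35 ± 0.20 SE, adjusted p = 0.00224). Hoxd4 had the lowest difference of the list (0.06, adjusted p = 0.941). The genes called were Hoxa2, Hoxa10 and Hoxa11, Hoxb1, Hoxb3, Hoxb5 and Hoxb6 (which share a region), Hoxc8 to Hoxc11, and Hoxd9 and Hoxd11, so every cluster had some. Hoxb1 was at 0.91 without centring and no longer called (adjusted p = 0.241).

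Other developmental regulators were mostly not called, although their list medians lay above that of promoter regions. Their counts stand beside 5.18% K27-K4-favoured and 16.2% K4-K27-favoured among all promoter regions, and no list was tested. Among 76 of 82 homeobox and paired box factors with a region, 8 were higher in K27-K4 and 0 in K4-K27 (median 0.74). Irx6 (1.30) and Lhx6, which specifies cortical interneurons (1.23), led, although Irx6 was not called without K27-K4 of clone 53 (1.10, adjusted p = 0.0797), and Six4 (-0.34, adjusted p = 0.243) and Gbx2 (-0.08, adjusted p = 0.753) had the lowest values. Of 62 of 76 Forkhead, Sox, Gata, T-box and bHLH factors, 7 were higher in K27-K4 and 1 in K4-K27 (median 0.78), with Mesp2 (1.74) and Bhlhe23 (1.23) at the top. The exception was Tcf15, a bHLH factor of somites that is also expressed in ESCs, with 0.54 and 0.30 in K4-K27, against -0.64 and -0.52 in K27-K4 (-1.001 ± 0.24 SE, adjusted p = 0.00895). It lies at the threshold and fell short of it without K4-K27 or K27-K4 of clone 43. Foxd3, which maintains ESC pluripotency, had a difference of -0.14 (adjusted p = 0.598).

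Among signalling genes, 48 of 60 Wnt, BMP, TGF-beta, FGF and Hedgehog ligands had a region, and 9 were higher in K27-K4 and 0 in K4-K27 (median 0.75). The 9 were Wnt2, Wnt3, Wnt7b, Wnt10a, Wnt10b (1.23), Gdf10, Fgf14, Ihh and Dhh. Bmp4, the BMP ligand added to ESC cultures to block neural differentiation, had -0.18 and -0.60 in K4-K27, against -1.36 and -0.87 in K27-K4 (-0.73, adjusted p = 0.176), and Inhbb, an activin subunit, had a difference of -0.49 (adjusted p = 0.0718). Of 48 of 57 axon guidance genes 2 were higher in K27-K4, the receptors Epha8 (1.62) and Robo3 (1.18), and 1 in K4-K27, the ephrin ligand Efna4 (-1.23, adjusted p = 0.00542, but -0.98 without K4-K27 of clone 53), with a median of 0.53 and Ephb4 at -0.42 (adjusted p = 0.213). Of 85 of 96 ion channels and neurotransmitter receptors 9 were higher in K27-K4 and 0 in K4-K27 (median 0.65). The potassium channel genes Kcnj9 (1.16, adjusted p = 0.0704, or 0.0497 with clone as a block) and Kcnh7 (1.15, adjusted p = 0.00566, but 0.87 and not called without K27-K4 of clone 53) had the largest values, and the sodium channel gene Scn2a (-0.39, adjusted p = 0.646) and the calcium channel gene Cacna1a (-0.19, adjusted p = 0.415) the lowest. Clustered protocadherins, cell surface proteins of neuronal identity, had 36 of 57 genes with a region, of which 3 were higher in K27-K4 and 0 in K4-K27 (median 0.22). Pcdhb17 (1.24) and Pcdha12 (1.02) were among the called, but both fell short of the log2 threshold with 1 library left out (0.93 without K4-K27 of clone 43 and 0.96 without K4-K27 of clone 53), and Pcdhgb2 (-0.75, adjusted p = 0.0515) and Pcdhgb1 (-0.24, adjusted p = 0.622) had the lowest values.

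**Figure D4:**
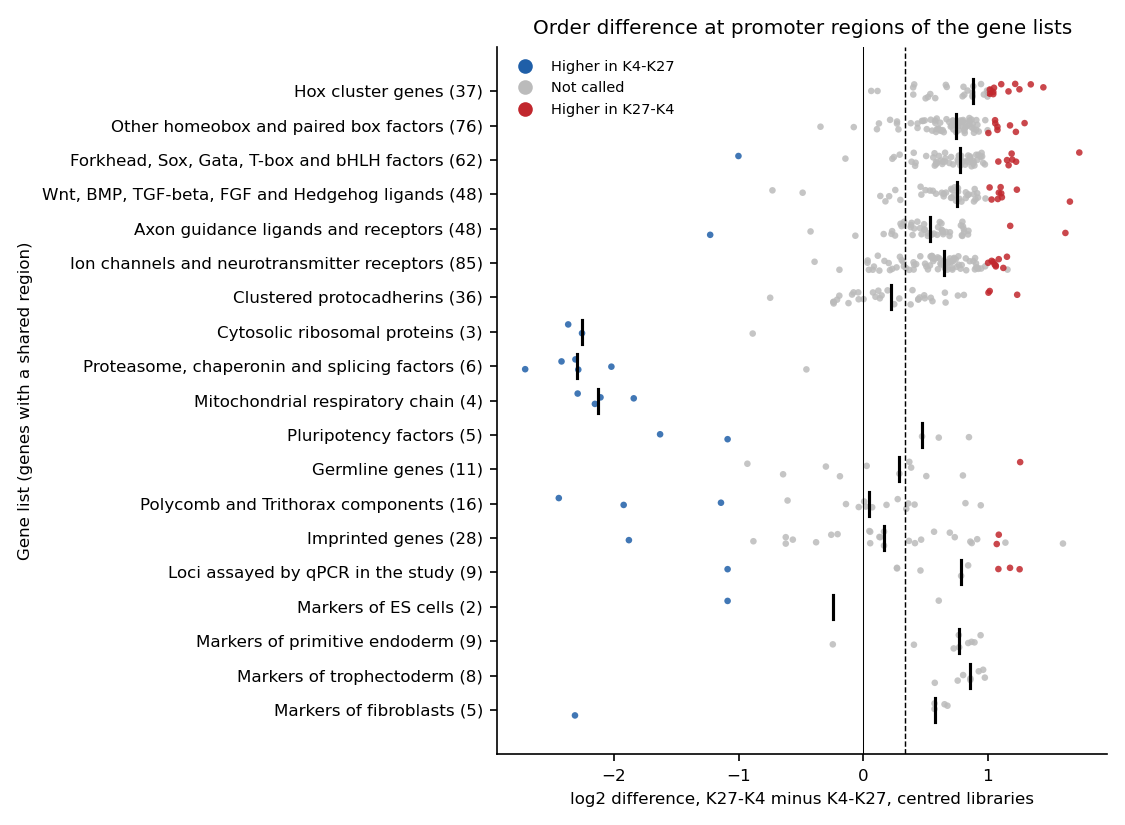
Log2 difference, K27-K4 minus K4-K27 (x axis), at the promoter region of each gene of the 19 lists (y axis, with the number of genes that had a shared region), coloured by call, with a bar at the list's median and a dashed line at the median of all shared regions, 0.34. Medians of the Hox and other developmental factor lists lie to the right of the dashed line, and those of the few ribosomal, proteasome and respiratory chain genes far to the left.

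Housekeeping genes seldom had a shared region, and those that did lay on the K4-K27 side. Only 3 of 82 cytosolic ribosomal protein genes had one, of which 2 were higher in K4-K27, while Rpl7 (-0.89) missed the log2 threshold. Of 75 proteasome, chaperonin and splicing genes 6 had one, and 5 were higher in K4-K27, among them the proteasome subunit Psma5 (-2.71), the chaperonin subunits Cct3 (-2.42) and Cct7 (-2.02), and not the splicing factor Prpf6 (-0.46, adjusted p = 0.183). Of 72 respiratory chain genes 4 had one and all 4 were called, Ndufa4 (-2.29), Uqcrc2 (-2.15), Uqcrfs1 (-2.11) and Ndufb3 (-1.84). Some of these regions also reached the promoter of another gene, so their values are not those of the housekeeping promoter alone. They are the regions of Rpl7 (with Rdh10), Prpf6 (Samd10), Cct3 (Tsacc), Cct7 (Pradc1), Ndufa4 (Phf14) and Ndufb3 (Fam126b). At Psma5 (chr3:108256051-108258150) the values were 0.38 and 0.55 in K4-K27, against -2.38 and -2.13 in K27-K4, from 178, 165, 35 and 27 reads. These were the regions used for the housekeeping scaling above, under which they cannot be called as a group.

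Of 24 pluripotency genes 5 had a region, and 2 were higher in K4-K27, Nr5a2, an orphan nuclear receptor (-1.63 ± 0.41 SE, adjusted p = 0.0119), and Klf4, a reprogramming factor (-1.09 ± 0.19 SE, adjusted p = 0.00326). Klf4 (chr4:55529251-55534500) had 0.99 and 0.97 in K4-K27, against -0.29 and 0.07 in K27-K4, from 682, 552, 373 and 309 reads, and fell to -0.91 without K27-K4 of clone 43. Esrrb had a difference of 0.61 (adjusted p = 0.0498) and Dppa3 0.85 (adjusted p = 0.0802). Of 37 germline genes 11 had a region, with Sycp2, of the synaptonemal complex, higher in K27-K4 (1.26, not called without either K27-K4 library) and values of 0.80 at Meioc, -0.64 at Stag3 and -0.93 at Zpbp2, none of these called. Polycomb and Trithorax genes had 16 of 53 with a region (median 0.05). Hcfc1 (-2.44), Cxxc1 (-1.14), both of complexes that methylate H3K4, and Aebp2, of PRC2 (-1.92), were higher in K4-K27, whereas Cbx8 (0.82), of PRC1, was below the log2 threshold. Of 51 imprinted genes 28 had a region, with 2 higher in K27-K4 and 1, Blcap (-1.88), in K4-K27 (median 0.17). In the same list Slc38a4 had -0.88 (adjusted p = 0.0406), H19 1.14 (adjusted p = 0.0598) and Airn 1.60 (adjusted p = 0.438). With clone as a block, which takes up the low values of clone 53 in both orders at Airn, Airn (adjusted p = 0.0169) and H19 (adjusted p = 0.0440) were called by limma. In K4-K27 of clone 53, however, Airn held 8 reads and H19 16. The differences at Airn were 0.72 in clone 43 and 2.49 in clone 53.

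Of 15 genes for which loci assayed by qPCR in the study are named, 9 had a shared region at the promoter. An assayed region with no gene name and a primer pair whose name matches no gene symbol were left out. The paper used Klf4 as an H3K4me3-only control, Gm6116 and Meis2 as H3K27me3-only controls, and the rest of the 9 as bivalent loci. Csf1 (1.26), Dlx3 (1.18) and Lmo1 (1.09) were higher in K27-K4, and Klf4 was higher in K4-K27. Dlx3 (chr11:95119651-95123700) had -0.08 and 0.17 in K4-K27, against 1.31 and 1.14 in K27-K4. Csf1 rested on 14 and 21 reads in K4-K27 and lost its call without K4-K27 of clone 43 or K27-K4 of clone 53, and Lmo1 was at 0.94 without K4-K27 of clone 53. Gm6116 (0.84), Sox6 (0.79), Colgalt2 (0.46), Meis2 (0.27) and Pou4f1 (0.27) were not called, and the Meis2 value is that of its promoter, outside which the primers lie. Colgalt2 was among the most enriched in both orders, with 1.60 and 1.06 in K4-K27, against 1.88 and 1.70 in K27-K4.

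Markers of lineages other than ESCs were read as well. None of 9 primitive endoderm markers (median 0.77) or 8 trophectoderm markers (median 0.86) was called. Foxa2 had 0.94, Pdgfra 0.89, Dab2 0.41 and Lama1 -0.24 among the former, and Krt18 0.98, Hand1 0.96, Gata3 0.76 and Eomes 0.58 among the latter. Of 5 fibroblast markers with a region Fn1, encoding fibronectin, was higher in K4-K27 (-2.31, adjusted p = 0.00547), with total H3K27me3 below IgG–IgG in both clones (-2.62 and -1.57), while Thy1 had 0.68, Prrx1 0.65 and Col1a1 0.57. These values read chromatin and not RNA.

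WT clones gave the same regions the same direction in libraries that the DKO comparison had not used. At the shared regions 17.6% were higher in K27-K4 and 10.3% in K4-K27 in WT clones. These counts moved with the scaling. The 1988 regions higher in K27-K4 became 93 without centring and 835 with quantile normalisation, and the 1163 higher in K4-K27 became 1340 and 1361. Of the 1187 regions favoured by K4-K27 in DKO clones, 911 (76.7%) were called so in WT clones and 0 the opposite way, and of the 811 favoured by K27-K4, 505 (62.3%) were called so and 0 the opposite way. The WT difference was above 0 at 99.3% of the K27-K4-favoured regions, at 0.76% of the K4-K27-favoured ones and at 76.1% of the regions not called. Medians for WT clones 57 and 58 were -1.82 and -1.28 at K4-K27-favoured regions and 1.45 and 0.90 at K27-K4-favoured ones. At Ngdn the WT difference was -2.51, at Ckap5 -2.79, at the first Caly region 2.01 and at Hoxb1 1.39. Of the 12 leading promoters of each order, both WT clones had the DKO direction at all of the K4-K27-favoured ones and at 11 of the K27-K4-favoured ones, with 1700024J04Rik the exception.

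**Figure D5:**
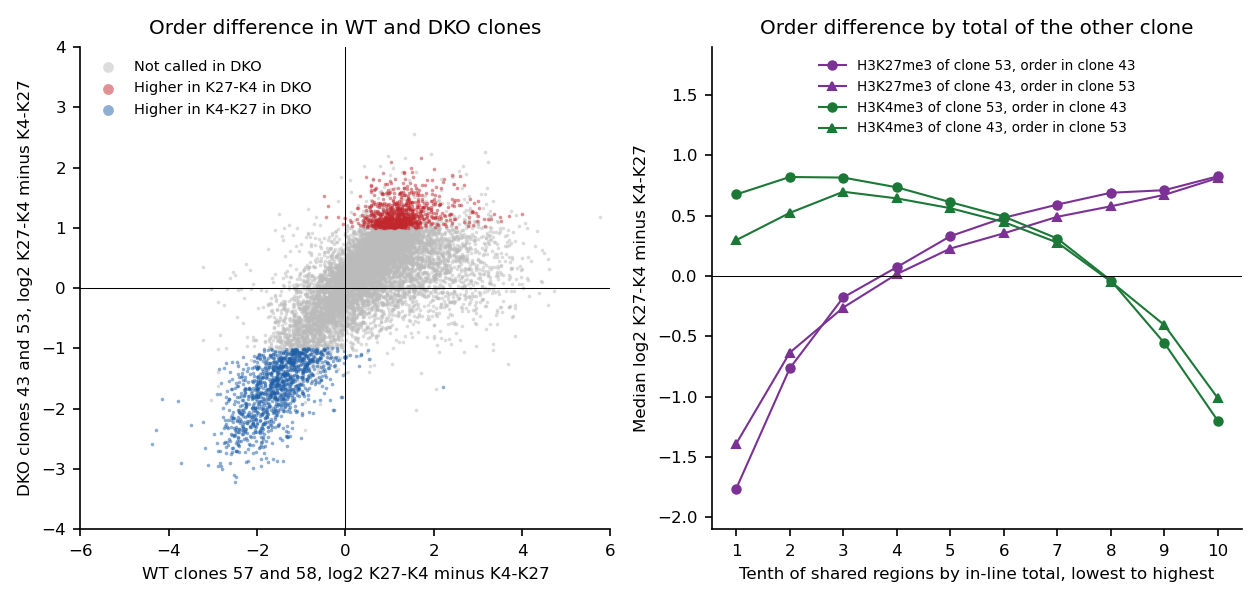
Left, log2 difference, K27-K4 minus K4-K27, in DKO clones (y axis) against WT clones (x axis), with regions coloured by the DKO call. Right, median order difference of one DKO clone (y axis, log2) in deciles of the shared regions by an in-line total of the other clone (x axis), rising from -1.76 and -1.39 to 0.83 and 0.81 with H3K27me3 and ending at -1.20 and -1.01 in the highest decile by H3K4me3.

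A test of the interaction between genotype and order called 0 of 11308 regions in either direction, with the smallest adjusted p at 0.878. At an unadjusted p under 0.05, the interaction, DKO difference minus WT difference, was positive at 184 regions and negative at 429. The median standard error of a single interaction was 0.43 log2 units with 2 clones per genotype, and interactions as far out as -4.95 did not pass. Without K4-K27 of WT clone 58, 8 regions were called with a positive and 289 with a negative interaction.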

How the data were processed

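The authors trimmed reads with Trim Galore 0.6.6, aligned them to mm10 (GRCm38.p6) with BWA 0.7.13 and quantified libraries in SeqMonk over listed regions. The deposited values are log2 read densities that the authors corrected for library size and region length, with duplicates kept, and their steps match log2 RPM per kb with no IgG–IgG subtraction. The authors called peaks with EPIC2 against IgG–IgG, and the submitters' processing notes also list MACS2. The edges of the deposited regions lie on a 150 bp grid, which is not that of the EPIC2 bins in the methods, so which caller made them was left unsettled. All values were whole multiples of 1 read (within 0.05 reads), with 0.9 entered for 0 reads, so reads were recovered. Depth ranged from 9242970 to 33848177 reads over the 17 clone libraries, and intervals cover counting error only. The 5 tables used also hold 8 columns of no sample in this series, which were not read, and tables of the remaining region sets were not used here.

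Shared regions were found by an overlap of at least 1 bp (Python 3.11.15, pandas 2.3.3, bedtools). Each library was centred on its median over the shared regions, and orders were compared with limma 3.58.1 in R 4.3.3 (lmFit, then eBayes with trend and robust) with Benjamini-Hochberg adjustment over all 11308 regions. Every adjusted p in the text is from limma. Calls needed both an adjusted p under 0.05 and a log2 difference beyond 1 in size. The same model was used for WT clones, for the totals and, with 8 libraries, for the interaction. A promoter was the 1.5 kb on each side of any of 32746 RefSeq start sites.

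Per the labels, each clone number occurs once in each order, so clone pairs the libraries. After removal of the group means, libraries of 1 clone correlated at r = 0.11 in DKO clones and 0.11 in WT clones (2 pairs each). The fit reported has no block for clone, and one with it was an alternative. On simulated data for the DKO order comparison (11308 regions, 200 of them shifted), 54% of shifts of 1.5, 68% of 2 and 75% of 3 log2 units were recovered, with 12, 7 and 16 unshifted regions called.

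The members, the lists and the rule for naming genes were chosen with earlier results of these data known. The rule took, for each order, the 12 called promoter regions of protein-coding genes with the largest difference, a mean of at least 20 reads and no overlap between the orders, the 2 largest away from promoters, all loci of the qPCR list, and the 2 highest and 2 lowest members of each other list. Further Hox genes, further signalling ligands and Cxxc1 were named because they were called, after their values were seen. With 2 clones per group, p-values measure the spread between clones within each order, which limma moderates with the spread of all shared regions. Alternatives covered scaling, filters, the variance model, thresholds, GC content and width, overlap rules, promoter width and each library left out. Some named regions are not reported here.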

Additional observations from a re-analysis of the deposited data

Results flagged for a closer look

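At 6 of 101 named regions (5.94%) both DKO clones had a difference, K27-K4 minus K4-K27, below 0 and both WT clones one above 0, and the reverse was seen at 0. Among all 11308 shared regions the clones lay on opposite sides of 0 in this way at 288 and in the reverse way at 170, which is 4.05% together. All 6 had 1 of the 2 lowest DKO differences of a list, a ground for naming them that favours this pattern over the reverse. The median difference over all shared regions was also higher in WT clones, at 0.58 against 0.34 in DKO clones. At Klf4 the differences were -1.28 and -0.90 in DKO clones 43 and 53, against 0.45 and 0.26 in WT clones 57 and 58, an interaction of -1.44 log2 units. At Bmp4 they were -1.18 and -0.27 against 0.50 and 0.54 (interaction -1.25), and at Inhbb -0.78 and -0.19 against 0.40 and 0.41 (-0.89). The protocadherin genes Pcdhgb2 (-0.89 and -0.60 against 0.67 and 1.35, interaction -1.76) and Pcdhgb1 (-0.22 and -0.26 against 1.22 and 0.94, interaction -1.32) had the same pattern, and so had Gbx2 (-0.13 and -0.02 against 0.50 and 0.19, interaction -0.42). None passed the limma test of the interaction, with adjusted p between 0.878 and 0.886.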

How the results depend on the processing

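As deposited, with no centring, 22 regions were higher in K27-K4, and with quantile normalisation 507. Centred on the 13 housekeeping promoters, 9712 were higher in K27-K4 and 0 in K4-K27, since this moved the median difference of all regions from 0.34 to 2.52, and the sign turned at Six4 (1.84), Gbx2 (2.11), Tcf15 (1.18), Foxd3 (2.04), Bmp4 (1.46), Inhbb (1.70), Efna4 (0.96), Ephb4 (1.76), Scn2a (1.80), Cacna1a (2.00), Pcdhgb2 (1.44), Pcdhgb1 (1.95), Rpl7 (1.30), Cct7 (0.16), Prpf6 (1.73), Uqcrc2 (0.032), Uqcrfs1 (0.077), Ndufb3 (0.34), Nr5a2 (0.56), Klf4 (1.10), Zpbp2 (1.26), Stag3 (1.54), Aebp2 (0.26), Blcap (0.30), Slc38a4 (1.30) and Lama1 (1.94), and also at Cxxc1 (1.04). Regions higher in K27-K4 numbered 354 with GC correction and no block, 269 with GC correction and the replicate block, and 236 with width correction. They numbered 442 without variance trend or robust fit, and 2922 without the limit on the log2 difference. Testing against a difference of 0.5 (treat) left 157 higher in K27-K4 and 629 in K4-K27, and the 6931 regions whose overlap covered at least 0.5 of both regions held 506 and 675. With clone as a replicate block, which pairs the libraries, 908 were higher in K27-K4 and 1201 in K4-K27, and Kcnj9, H19 and Airn were called in addition among the named genes. The other alternatives run on this comparison (low-value filters, voom weights, 1 fit with WT, autosomes, the K27-K4 region table) kept both counts within 1.5 times.

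Leaving out 1 library, which takes the lone library of an order to vary as the pair of the other, gave 322 to 1443 regions higher in K27-K4 and 944 to 1242 higher in K4-K27. In WT clones it gave 745 to 2920 higher in K27-K4 and 770 (without K4-K27 of clone 57) to 1242 in K4-K27, while the interaction (DKO minus WT) had 0 to 8 positive and 0 to 289 negative calls. The cause of these shifts was not tested. WT clones had 93 regions higher in K27-K4 as deposited and 835 with quantile normalisation. The totals had 1947 regions with more H3K27me3 as deposited. The promoter share of K27-K4-favoured regions was 59.9% at 5 kb either side and 39.6% at 1 kb upstream to 100 bp downstream. As deposited, the WT difference had the DKO direction at 88.0% of K27-K4-favoured and 99.9% of K4-K27-favoured regions. The 12 leading K27-K4-favoured promoters held 6 to 34 reads in their lowest library, which limits their precision.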

Other observations

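E14 cells that carry no knockout were profiled by the same reChIPs, and 9907 of the shared regions met a region of the E14 K4-K27 table, over which each E14 library was centred. The E14 replicates did not give one answer at the regions that the DKO clones separated. At the 1102 K4-K27-favoured regions with an E14 region, the median difference, K27-K4 minus K4-K27, was 0.78 in E14 replicate 1 and -0.21 in replicate 2. At 784 K27-K4-favoured regions it was -0.37 in replicate 1 and 0.04 in replicate 2. Across the 9907 regions Pearson's r with the DKO difference was -0.62 for replicate 1 and 0.23 for replicate 2. The labels were taken as given, and if the K4-K27 and K27-K4 libraries of replicate 1 were exchanged, its values would change sign, which was not tested. By the labels, replicate 1 ran opposite to the DKO clones and replicate 2 in the same direction with a small size. The paper states that replicate 2 was sequenced more deeply than replicate 1, and that biological replicates came from different passages, collected on separate days. The E14 values were measured over E14 regions and not over the windows of the clones, and what sets the replicates apart was not tested.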
